A study of Mus musculus with 12 samples.

Results

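The 42 genes described here encode collagen and laminin chains of the extracellular matrix and the proteins that assemble it, bind it or cut it. They were chosen by symbol, and each was read from the locus whose gene name held that symbol, out of 33864 loci in the expression table of the series. Of the 42 symbols, 41 stood at 1 locus; for Agrn, which stood at a second locus with a mean of 0.84 FPKM, the higher locus was used. No member's locus carried a second symbol. The set was chosen after it was known that Col5a3 and Bmp1 were higher and Lamc1 was lower in ErbB2V664E mutants, so the values of that comparison are given as a description and are not evidence about the set.

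RNA was sequenced from subcortical white matter of 12 mice in 4 groups of 3, with 1 library for each mouse. The ErbB2V664E mutants (Sox10-tTA;TRE-ErbB2V664E) and their ErbB2V664E controls (littermates with TRE-ErbB2V664E alone) were 30 days old and had doxycycline from day 21 to day 30. The dnEGFR mutants (Sox10-tTA;TRE-dnEGFR) and their dnEGFR controls (littermates with TRE-dnEGFR alone) were 35 days old and had doxycycline from day 21 to day 35. The series title names the question as what activating or inhibiting ErbB receptors in oligodendrocyte lineage cells does to expression in white matter. ErbB2V664E is an activating form of the receptor tyrosine kinase ErbB2, and dnEGFR is a form of EGFR, the receptor for epidermal growth factor, that acts as a dominant negative. All 4 groups carried a responder transgene and received doxycycline. Sox10 regulatory sequence, active in the oligodendrocyte lineage, drives the transactivator tTA, which controls the responder; no group carried tTA alone, so an effect of tTA itself cannot be told apart from that of the receptor. The labels do not say if doxycycline turned transgene expression on or off.

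In the brain, the matrix of fibrillar collagens is sparse and lies mainly around larger vessels and in the meninges. A basement membrane of type IV collagen, laminin, nidogen and heparan sulfate proteoglycans such as perlecan and agrin surrounds the vessels, built by endothelial cells, pericytes and astrocytes. The space between neural cells holds instead a matrix rich in hyaluronan, proteoglycans and tenascins, and laminins are ligands for integrins and dystroglycan on oligodendrocytes during myelination. Collagens are secreted as procollagens, and proteases of the BMP1 family cut off their C-terminal propeptides before fibrils form.

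The printed promoter windows are 5 from RefSeq on GRCm38.p6, each from 250 bases before to 50 bases from the annotated start, written 5′ to 3′ on the strand of the gene. Col5a3 (chr9:20815018-20815317, minus strand) is shown as the member with the largest log2 change in ErbB2V664E mutants. Col4a1 (chr8:11312777-11313076, minus strand) and Col4a2 (chr8:11312555-11312854, plus strand) are shown because these chains assemble with each other and start 21 bases apart on opposite strands. Their ratio ran from 0.593 to 1.0 over the 12 libraries, and that of Col6a1 to Col6a2 from 7.22 to 12.4, a similar relative range. Sparc (chr11:55420031-55420330, minus strand) and Tnr (chr1:159523519-159523818, plus strand) are shown as the members of lowest unadjusted p in dnEGFR mutants. Capitals mark matches on either strand to 3 motifs, the TATA box TATAAA, the CCAAT box CCAAT and the GC box GGGCGG.
Col5a3: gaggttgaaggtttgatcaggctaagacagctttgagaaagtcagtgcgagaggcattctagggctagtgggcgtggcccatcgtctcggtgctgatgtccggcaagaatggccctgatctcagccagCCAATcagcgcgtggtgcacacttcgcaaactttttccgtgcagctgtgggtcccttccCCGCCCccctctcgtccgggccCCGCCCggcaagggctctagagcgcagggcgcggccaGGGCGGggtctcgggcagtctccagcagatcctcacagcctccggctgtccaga
Col4a1: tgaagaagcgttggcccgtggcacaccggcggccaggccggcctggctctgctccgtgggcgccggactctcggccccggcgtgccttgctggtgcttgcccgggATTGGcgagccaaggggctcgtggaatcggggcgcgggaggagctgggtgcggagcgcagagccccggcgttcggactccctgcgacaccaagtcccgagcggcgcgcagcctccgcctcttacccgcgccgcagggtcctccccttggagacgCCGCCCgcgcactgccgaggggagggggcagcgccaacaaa
Col4a2: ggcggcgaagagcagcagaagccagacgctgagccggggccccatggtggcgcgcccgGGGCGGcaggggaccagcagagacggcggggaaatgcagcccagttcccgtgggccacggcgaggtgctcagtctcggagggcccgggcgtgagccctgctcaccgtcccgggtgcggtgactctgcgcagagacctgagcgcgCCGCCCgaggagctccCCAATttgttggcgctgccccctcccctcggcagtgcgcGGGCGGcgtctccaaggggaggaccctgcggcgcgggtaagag
Sparc: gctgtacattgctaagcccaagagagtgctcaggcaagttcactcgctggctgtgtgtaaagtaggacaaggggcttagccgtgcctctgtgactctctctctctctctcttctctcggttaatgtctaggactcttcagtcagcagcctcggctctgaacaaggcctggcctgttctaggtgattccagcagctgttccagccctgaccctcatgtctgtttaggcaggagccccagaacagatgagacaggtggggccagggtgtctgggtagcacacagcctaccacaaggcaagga
Tnr: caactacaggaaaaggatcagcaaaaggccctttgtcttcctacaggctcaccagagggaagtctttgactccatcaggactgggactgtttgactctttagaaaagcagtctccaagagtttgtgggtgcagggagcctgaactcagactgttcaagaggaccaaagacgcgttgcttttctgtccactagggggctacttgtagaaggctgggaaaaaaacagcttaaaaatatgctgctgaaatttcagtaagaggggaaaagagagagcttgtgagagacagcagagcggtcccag

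The Col5a3 window held 1 CCAAT box on the gene's strand and 3 GC boxes, of which 1 was on the gene's strand. The windows of Col4a1 and Col4a2 overlapped by 78 bases and had 74.0% and 73.7% G or C. The Col4a1 window held 1 CCAAT box and 1 GC box, both on the strand opposite to the gene. In the Col4a2 window there was 1 CCAAT box on the gene's strand, with 2 GC boxes on that strand and 1 on the other. The windows of Sparc and Tnr held none of the 3 motifs and had 55.3% and 48.0% G or C. RefSeq windows were matched for 27 of the 42 genes by symbol. Of these 27 genes, 3 held a TATA box, 10 a CCAAT box and 20 a GC box in at least 1 window. The genes had 31 windows, of which 4, 10 and 23 held these motifs, while 13.6%, 37.4% and 35.7% of all 32851 windows of this length held them. None of the motifs contains another, and a match is a description of the sequence only.

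Levels are given as FPKM, which corrects the fragments of a gene for transcript length and library depth, so that genes can be compared per length. The libraries summed to 117363 to 134410 FPKM and held an estimated 16596869 to 24739591 fragments, so that 1 FPKM of a 2 kb transcript stood for 33.2 to 49.5 fragments. Mature myelin genes, the markers of the labelled tissue, were present in all 12 libraries, with Mbp at 427 to 866 FPKM. Such genes, 12 in all, summed to 719 to 1179.8 FPKM in ErbB2V664E mutants, against 1202 to 1938 FPKM in ErbB2V664E controls, and to 1109 to 1312 FPKM in dnEGFR mutants, against 1075 to 1271 FPKM in dnEGFR controls. Neuron markers, 10 in all, summed to 634 to 693 FPKM in ErbB2V664E mutants, against 539.8 to 623 FPKM in ErbB2V664E controls, without overlap. Snap25 alone averaged 244 FPKM in ErbB2V664E mutants and 189 FPKM in ErbB2V664E controls. Of the 10 neuron changes in this line, 8 were positive and 2 negative (median log2 change of 0.08). The neuron sum was 420.1 to 717 FPKM in dnEGFR mutants, against 606 to 752 FPKM in dnEGFR controls, with 2 changes positive and 8 negative (median of -0.15). The part of neurons in the members' values was not tested. Choroid plexus markers, led by Ttr, ran from 34.5 to 842 FPKM in sum over the libraries. ErbB2V664E mutant 1 stood apart from the other mutants of its line in the choroid plexus sum (796 FPKM, against 34.5 FPKM in mutant 2 and 128 FPKM in mutant 3) and in the red blood cell sum (118 FPKM, against 32.5 FPKM in mutant 2 and 22.1 FPKM in mutant 3). In whole tissue, fewer cells of a type and less RNA per cell cannot be told apart.

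White matter held a matrix gene profile dominated by 1 gene. Sparcl1, which encodes a secreted astrocyte protein related to SPARC, made up 67.7% to 77.1% of the summed FPKM of the 42 members, which was 601 to 922 FPKM per library. Means over the 12 libraries were 10 FPKM or more for 6 members, 1 to 10 FPKM for 21 and under 1 FPKM for 15. A locus was tested if at least 3 of the 12 libraries had 1 FPKM or more, and 29 of the 42 members met this. Members that entered the test did so in part through the groups where they were high, so counts over the 29 do not stand for the whole set.

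The 13 members that were not tested included the genes that define interstitial connective tissue. Col1a1 and Col1a2, the chains of type I collagen, lay at 0.314 to 0.698 FPKM and 0.406 to 0.885 FPKM over all libraries, and Col3a1, the chain of type III collagen, at 0.122 to 0.406 FPKM. Decorin (Dcn) and lumican (Lum), small proteoglycans that bind collagen fibrils, lay at 0.345 to 0.883 FPKM and 0.0471 to 0.653 FPKM. Col5a2, a type V chain, reached at most 0.8 FPKM, and Col6a3, the long chain of type VI collagen, at most 0.675 FPKM. The kidney and lung type IV chains Col4a3 and Col4a4 had at most 0.386 and 0.38 FPKM, and Lama1, the laminin α1 chain, had at most 0.364 FPKM. The lysyl oxidases Lox and Loxl2, which cross-link collagen and elastin, had at most 0.192 and 0.298 FPKM. Col18a1, the precursor of endostatin in vessel basement membranes, came closest to entering and reached 1 FPKM in 1 library, ErbB2V664E mutant 1, at 1.08 FPKM. At these levels a gene rested on few reads: Lox on an estimated 5.66 to 20.1 fragments per library and Col1a1 on 34.2 to 85.2.

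**Figure D1:**
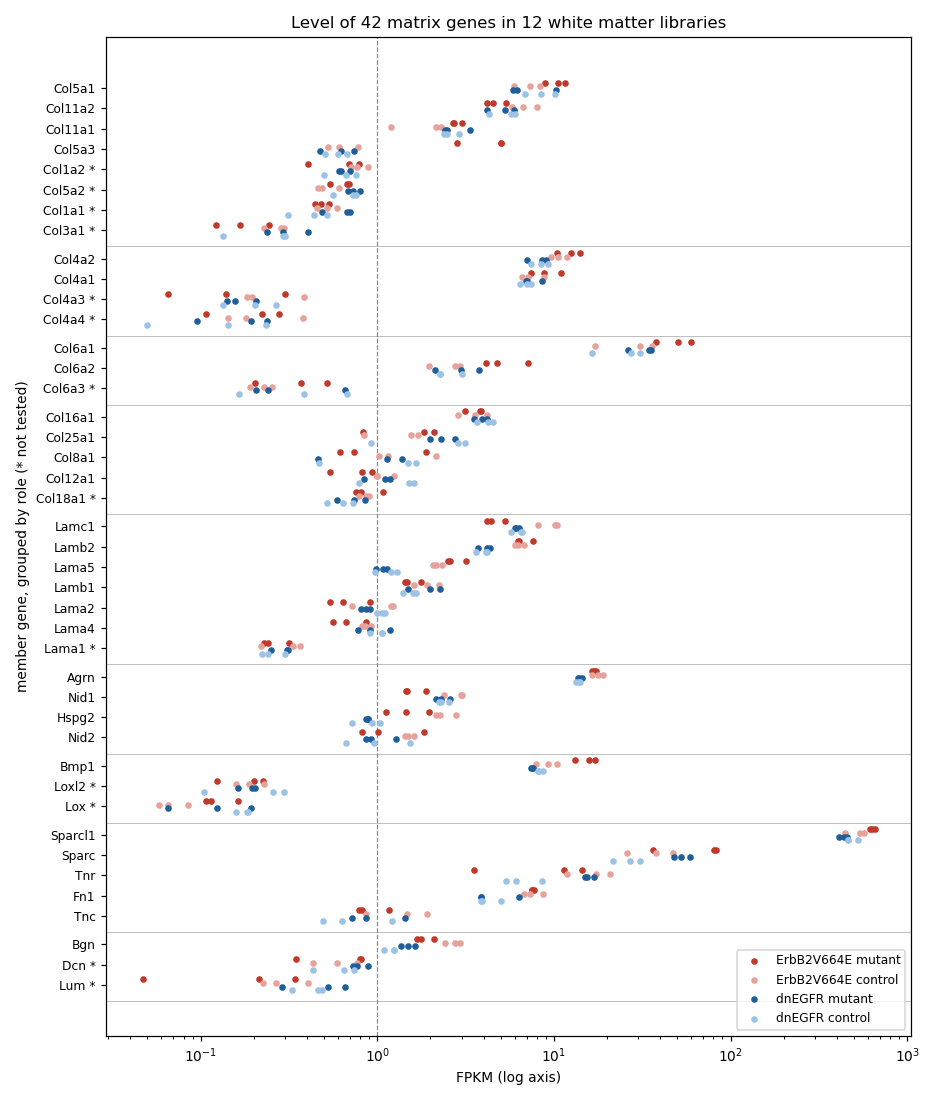
FPKM of the 42 matrix genes (rows, grouped by role) on a log axis, with 1 point for each of the 12 libraries coloured by group; an asterisk marks the 13 genes that were not tested, and the dashed line marks 1 FPKM. Sparcl1 lies far to the right at 410.1 to 657 FPKM, and Col1a1, Col1a2, Col3a1, Dcn and Lum lie left of the line in every library.

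Among fibrillar collagens, Col5a3 separated the ErbB2V664E mutants from the other 9 libraries. Col5a3, the α3 chain of type V collagen, had 2.82, 4.99 and 5.01 FPKM in ErbB2V664E mutants, against 0.61, 0.528 and 0.782 FPKM in ErbB2V664E controls. In the other line it had 0.621, 0.737 and 0.472 FPKM in dnEGFR mutants, against 0.677, 0.508 and 0.601 FPKM in dnEGFR controls. The lowest ErbB2V664E mutant stood above every one of the other 9 libraries, and the dnEGFR groups overlapped. The mean was 4.27 ± 1.26 FPKM in ErbB2V664E mutants and 0.64 ± 0.13 FPKM in ErbB2V664E controls (SD, n = 3 each), a ratio of 6.67 (log2 change of FPKM + 1 of 1.66, SE 0.17). The log2 scale with a pseudocount of 1 understates this change, since the controls lie under 1 FPKM. In dnEGFR mutants the log2 change of Col5a3 was 0.01, with a 95% interval of -0.37 to 0.39 (limma, adjusted p = 1).

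Its partner chain Col5a1, the most abundant fibrillar chain, differed less. Col5a1 had 11.5, 10.6 and 8.91 FPKM in ErbB2V664E mutants, against 7.37, 5.97 and 8.38 FPKM in ErbB2V664E controls. In dnEGFR mutants it had 5.85, 10.3 and 6.15 FPKM, against 6.83, 10.2 and 8.49 FPKM in dnEGFR controls. The ErbB2V664E groups did not overlap and the dnEGFR groups did. Per length, the level of Col5a3 was 0.244 to 0.562 times that of Col5a1 in ErbB2V664E mutants, against 0.0828 to 0.0933 times in ErbB2V664E controls. The same ratio was 0.0714 to 0.106 in dnEGFR mutants and 0.05 to 0.0991 in dnEGFR controls.

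The type XI chains can stand in for type V chains in mixed fibrils, and neither passed the threshold in ErbB2V664E mutants (limma adjusted p = 0.293 for Col11a1 and 0.266 for Col11a2). Col11a1 averaged 2.82 ± 0.188 FPKM in ErbB2V664E mutants and 1.87 ± 0.592 FPKM in ErbB2V664E controls (SD, n = 3 each). Col11a2 averaged 4.66 ± 0.603 FPKM in ErbB2V664E mutants and 6.81 ± 1.13 FPKM in ErbB2V664E controls. Neither pair of groups overlapped. In the dnEGFR line both overlapped, with Col11a1 at 2.75 ± 0.521 FPKM in mutants and 2.59 ± 0.274 FPKM in controls, and Col11a2 at 5.14 ± 0.908 FPKM in mutants and 5.34 ± 0.921 FPKM in controls. The summed level of the 8 fibrillar chains was 24.0 ± 0.584 FPKM in ErbB2V664E mutants, 18.7 ± 3.14 FPKM in ErbB2V664E controls, 18.3 ± 1.75 FPKM in dnEGFR mutants and 19.0 ± 2.58 FPKM in dnEGFR controls (SD, n = 3 each).

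The type IV chains of basement membranes overlapped between mutants and controls. Col4a2 had 12.5, 14.1 and 10.4 FPKM in ErbB2V664E mutants, against 10.5, 9.64 and 11.9 FPKM in ErbB2V664E controls. It had 8.57, 9.08 and 7.04 FPKM in dnEGFR mutants, against 7.43, 9.28 and 8.46 FPKM in dnEGFR controls. Every ErbB2V664E-line library was above every dnEGFR-line library for Col4a2. Col4a1, its partner in the same heterotrimer, averaged 9.05 ± 1.84 FPKM in ErbB2V664E mutants and 7.54 ± 1.16 FPKM in ErbB2V664E controls, and 7.5 ± 0.908 FPKM in dnEGFR mutants and 6.96 ± 0.463 FPKM in dnEGFR controls (SD, n = 3 each). The Col4a1 to Col4a2 ratio stayed between 0.593 and 1.0 in the 12 libraries, with a median of 0.801. In dnEGFR mutants the log2 change was 0.09 for Col4a1, with a 95% interval of -0.24 to 0.42, and -0.03 for Col4a2, with an interval of -0.33 to 0.28.

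Type VI collagen, a microfibril-forming collagen of vessel walls and nerve, had the most abundant collagen chain of the set. Col6a1 had 50.7, 60.1 and 38.0 FPKM in ErbB2V664E mutants, against 30.7, 17.1 and 35.8 FPKM in ErbB2V664E controls. In dnEGFR mutants it had 26.3, 34.7 and 35.4 FPKM, against 16.4, 30.6 and 27.4 FPKM in dnEGFR controls. The lowest ErbB2V664E mutant was just above the highest control, and the dnEGFR groups overlapped. Col6a2, which assembles with Col6a1, averaged 5.33 ± 1.56 FPKM in ErbB2V664E mutants and 2.56 ± 0.521 FPKM in ErbB2V664E controls, without overlap (SD, n = 3 each). Col6a2 averaged 2.94 ± 0.815 FPKM in dnEGFR mutants and 2.52 ± 0.432 FPKM in dnEGFR controls, with overlap. Across libraries Col6a1 ran at 7.22 to 12.4 times the level of Col6a2, with a median of 10.3, so the chains differed in level by far more than either differed between genotypes. In dnEGFR mutants the log2 change was 0.40 (SE 0.30, adjusted p = 0.987) for Col6a1 and 0.15 (SE 0.20, adjusted p = 1) for Col6a2 by limma.

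**Figure D2:**
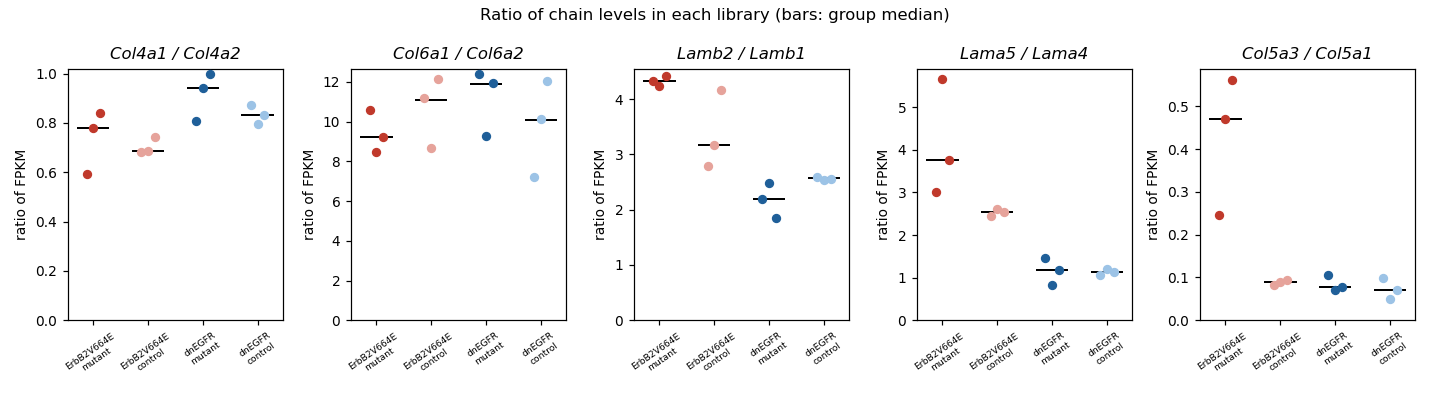
Ratio of the FPKM of 2 chains in each library (y axis, linear from 0), for 5 chain pairs, with libraries as points and the median of each group as a bar. Col5a3 over Col5a1 is 0.244 to 0.562 in ErbB2V664E mutants and at most 0.106 in the other groups, while Col4a1 over Col4a2 stays between 0.593 and 1.0.

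The other collagen chains were low. Col16a1, a collagen associated with fibril surfaces, had 3.82, 3.85 and 3.12 FPKM in ErbB2V664E mutants, against 3.59, 2.86 and 4.19 FPKM in ErbB2V664E controls. It had 3.55, 4.2 and 3.91 FPKM in dnEGFR mutants, against 3.67, 4.54 and 4.24 FPKM in dnEGFR controls. The 4 groups overlapped. Col25a1, a transmembrane collagen made by neurons, averaged 1.59 ± 0.666 FPKM in ErbB2V664E mutants and 1.36 ± 0.452 FPKM in ErbB2V664E controls, and 2.35 ± 0.37 FPKM in dnEGFR mutants and 2.31 ± 1.21 FPKM in dnEGFR controls (SD, n = 3 each). Col8a1, a short-chain collagen of vessel walls, spread from 0.463 to 2.14 FPKM over the libraries. Col12a1, which links fibrils to other matrix, averaged 0.762 ± 0.204 FPKM in ErbB2V664E mutants and 1.08 ± 0.137 FPKM in ErbB2V664E controls, without overlap.

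Among laminins, Lamc1 stood out. Lamc1 encodes the γ1 chain, which is shared by most laminin trimers. Lamc1 had 5.28, 4.16 and 4.42 FPKM in ErbB2V664E mutants, against 10.4, 8.09 and 10.2 FPKM in ErbB2V664E controls. It had 6.35, 6.03 and 6.1 FPKM in dnEGFR mutants, against 6.48, 5.72 and 6.63 FPKM in dnEGFR controls. The ErbB2V664E mutants were the lowest of the 4 groups and the ErbB2V664E controls the highest, with the dnEGFR libraries between them. The mean in ErbB2V664E mutants was 0.483 times that in their controls (log2 change of -0.91, SE 0.11). In dnEGFR mutants the mean was 0.982 times that in controls, with a log2 change of -0.02 and a 95% interval of -0.27 to 0.23 (limma, adjusted p = 1).

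The most abundant α and β chains did not have lower means in ErbB2V664E mutants. Lama5, the α5 chain of mature vessel basement membranes, had 2.59, 3.18 and 2.5 FPKM in ErbB2V664E mutants, against 2.08, 2.15 and 2.33 FPKM in ErbB2V664E controls. Lama5 had 1.14, 0.981 and 1.08 FPKM in dnEGFR mutants, against 0.975, 1.29 and 1.2 FPKM in dnEGFR controls. The ErbB2V664E mutants were all above their controls, and both ErbB2V664E groups lay above both dnEGFR groups. Lamb2, the β2 chain, had 7.65, 6.23 and 6.37 FPKM in ErbB2V664E mutants, against 6.24, 6.03 and 6.75 FPKM in ErbB2V664E controls. Lamb2 had 4.35, 3.7 and 4.17 FPKM in dnEGFR mutants, against 3.62, 4.2 and 4.1 FPKM in dnEGFR controls. For Lamb2 mutants and controls overlapped within each line, and the lines did not overlap. Lamb1, the β1 chain, averaged 1.56 ± 0.185 FPKM in ErbB2V664E mutants and 1.92 ± 0.303 FPKM in ErbB2V664E controls, and 1.91 ± 0.387 FPKM in dnEGFR mutants and 1.55 ± 0.135 FPKM in dnEGFR controls (SD, n = 3 each).

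Lama2, the α2 chain of the laminin whose loss causes congenital muscular dystrophy with white matter changes, averaged 0.695 ± 0.187 FPKM in ErbB2V664E mutants and 1.05 ± 0.285 FPKM in ErbB2V664E controls, with overlap (SD, n = 3 each). Lama2 in the dnEGFR line averaged 0.859 ± 0.0485 FPKM in mutants and 1.06 ± 0.056 FPKM in controls, without overlap (log2 change of -0.15, SE 0.13, limma adjusted p = 0.987). Lama2 reached 1 FPKM in control libraries only and entered the test through them, so these values are a description. Lama4, the α4 chain of endothelial basement membranes, lay between 0.561 and 1.18 FPKM. The Lama5 to Lama4 ratio was 3.01 to 5.67 in ErbB2V664E mutants and 2.45 to 2.62 in ErbB2V664E controls, and 0.833 to 1.46 in dnEGFR mutants and 1.07 to 1.21 in dnEGFR controls.

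Nid1, which bridges laminin and type IV collagen, was low in the same libraries as Lamc1. Nid1 had 1.88, 1.46 and 1.48 FPKM in ErbB2V664E mutants, against 3.03, 2.38 and 2.97 FPKM in ErbB2V664E controls, without overlap. It averaged 2.34 ± 0.219 FPKM in dnEGFR mutants and 2.36 ± 0.153 FPKM in dnEGFR controls (SD, n = 3 each). Nid2, its paralogue, averaged 1.22 ± 0.539 FPKM in ErbB2V664E mutants and 1.51 ± 0.1 FPKM in ErbB2V664E controls, with overlap. Hspg2, which encodes perlecan, had 1.96, 1.46 and 1.12 FPKM in ErbB2V664E mutants, against 2.28, 2.16 and 2.8 FPKM in ErbB2V664E controls. Hspg2 had 0.885, 0.86 and 0.889 FPKM in dnEGFR mutants, against 0.715, 0.931 and 1.03 FPKM in dnEGFR controls. The ErbB2V664E mutants were all below their controls and all above the dnEGFR libraries. Agrn, which encodes agrin, had 16.8, 17.3 and 16.4 FPKM in ErbB2V664E mutants, against 16.4, 17.8 and 19.0 FPKM in ErbB2V664E controls. Agrn had 13.9, 13.7 and 14.5 FPKM in dnEGFR mutants, against 13.3, 14.1 and 13.8 FPKM in dnEGFR controls. Agrin transcripts overlapped within each line and were higher in every ErbB2V664E library than in every dnEGFR library.

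Of the enzymes, Bmp1, the procollagen C-proteinase, was the 1 that entered the test. Bmp1 had 13.1, 17.0 and 15.8 FPKM in ErbB2V664E mutants, against 7.93, 9.24 and 10.4 FPKM in ErbB2V664E controls. It had 7.43, 7.54 and 7.62 FPKM in dnEGFR mutants, against 8.2, 8.15 and 8.69 FPKM in dnEGFR controls. All ErbB2V664E mutants were above, and all dnEGFR mutants below, their own controls. The ratio of means was 1.66 in the ErbB2V664E line (log2 change of 0.68, SE 0.11) and 0.902 in the dnEGFR line (log2 change of -0.13, SE 0.11, limma adjusted p = 0.987). The 95% interval of the change in dnEGFR mutants was -0.38 to 0.12.

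Sparc, which encodes a collagen-binding glycoprotein that modulates cell contact with matrix, had a higher mean in both mutants than in their controls. Sparc had 36.4, 83.1 and 80.8 FPKM in ErbB2V664E mutants, against 47.1, 37.7 and 26.1 FPKM in ErbB2V664E controls. It had 52.7, 47.7 and 58.6 FPKM in dnEGFR mutants, against 27.1, 21.7 and 30.8 FPKM in dnEGFR controls. The dnEGFR groups did not overlap, while ErbB2V664E mutant 1 lay within its controls and the other 2 mutants far above them. The ratio of means was 1.81 in the ErbB2V664E line and 2.0 in the dnEGFR line. In the dnEGFR line, which did not choose the members, the log2 change was 0.98 (SE 0.31), with a 95% interval of 0.29 to 1.67, an unadjusted p of 0.0102 and an adjusted p of 0.684 over all loci by limma. This did not pass the threshold, with all 3 mutants above all 3 controls. Microglia, which also make Sparc, had a summed marker level of 102 to 156 FPKM in dnEGFR mutants, against 116 to 120.3 FPKM in dnEGFR controls, and 64.6 to 112 FPKM in ErbB2V664E mutants, against 110.2 to 145 FPKM in ErbB2V664E controls, and their part in the Sparc values was not tested.

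Tnr, which encodes tenascin-R, a glycoprotein of oligodendrocytes and perineuronal nets, varied widely. Tnr had 3.53, 14.5 and 11.4 FPKM in ErbB2V664E mutants, against 20.9, 11.8 and 17.3 FPKM in ErbB2V664E controls. It had 15.4, 16.8 and 15.1 FPKM in dnEGFR mutants, against 5.37, 8.54 and 6.11 FPKM in dnEGFR controls. The dnEGFR mutants were all above their controls, and the ErbB2V664E groups overlapped, with mutant 1 the lowest of the 12 libraries. The ratio of means was 2.36 in the dnEGFR line, with a log2 change of 1.15 (SE 0.40), a 95% interval of 0.27 to 2.03, an unadjusted p of 0.0158 and an adjusted p of 0.74 by limma, so the change did not pass the threshold. The dnEGFR mutants fell within the range of the ErbB2V664E controls, and the dnEGFR controls, at 5.37 to 8.54 FPKM, lay below it. Tnc, the related tenascin-C, was lower in level, at 0.493 to 1.92 FPKM over the libraries, and overlapped in both lines.

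Fn1, which encodes fibronectin, overlapped between mutants and controls and was higher in all ErbB2V664E-line libraries than in all dnEGFR-line libraries. Fn1 had 7.53, 7.73 and 7.56 FPKM in ErbB2V664E mutants, against 6.74, 7.35 and 8.65 FPKM in ErbB2V664E controls. It had 6.32, 3.86 and 3.85 FPKM in dnEGFR mutants, against 5.01, 3.87 and 3.92 FPKM in dnEGFR controls. Of the dnEGFR libraries, the high mutant and the high control were littermates. Sparcl1 had 616, 633 and 657 FPKM in ErbB2V664E mutants, against 445, 538 and 568 FPKM in ErbB2V664E controls. Sparcl1 had 410.1, 459 and 438 FPKM in dnEGFR mutants, against 463, 463 and 528 FPKM in dnEGFR controls. The ErbB2V664E mutants were all above and the dnEGFR mutants all below their controls, by log2 changes of 0.30 (SE 0.10) and -0.15 (SE 0.10). The 10 astrocyte markers include none of the members. Their sum was 217 to 254 FPKM in ErbB2V664E mutants, against 294 to 447 FPKM in ErbB2V664E controls. In the dnEGFR line it was 273 to 343 FPKM in mutants, against 262 to 286 FPKM in controls. Slc1a2 alone averaged 97.2 FPKM in dnEGFR mutants and 46.8 FPKM in dnEGFR controls, while S100b averaged 43.3 and 67.2 FPKM. Of the 9 tested astrocyte changes, 4 were positive and 5 negative in dnEGFR mutants (median log2 change of -0.08). In ErbB2V664E mutants 1 was positive and 8 were negative (median log2 change of -0.56). The part of astrocytes in the Sparcl1 values was not tested.

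Bgn, which encodes biglycan, was the 1 small leucine-rich proteoglycan that entered the test. Bgn had 2.09, 1.68 and 1.77 FPKM in ErbB2V664E mutants, against 2.42, 2.94 and 2.74 FPKM in ErbB2V664E controls. It had 1.64, 1.36 and 1.49 FPKM in dnEGFR mutants, against 1.24, 1.09 and 1.24 FPKM in dnEGFR controls. Biglycan transcripts were thus lower in all ErbB2V664E mutants and higher in all dnEGFR mutants than in their controls. In the dnEGFR line the log2 change was 0.19 (SE 0.09, limma adjusted p = 0.918).

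**Figure D3:**
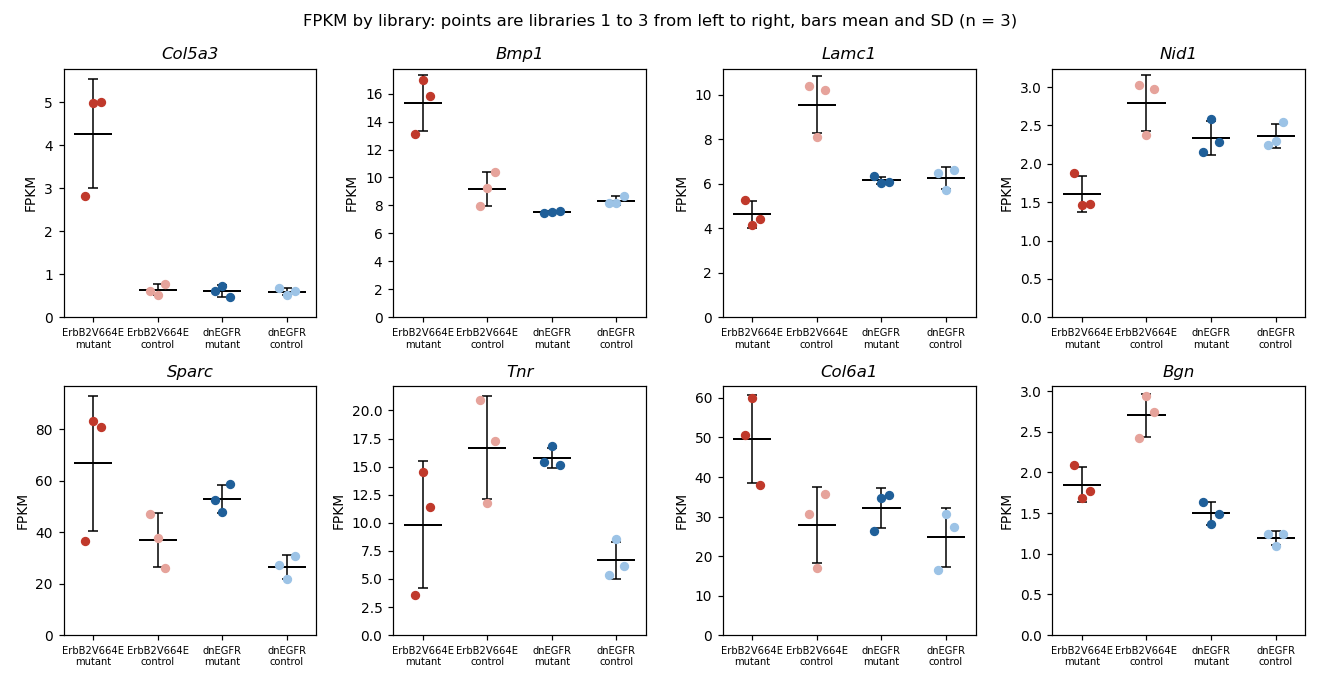
FPKM (y axis, linear from 0) of 8 members in the 4 groups, with libraries 1 to 3 as points and the mean and SD as bars (n = 3). Col5a3 and Bmp1 are higher and Lamc1 and Nid1 lower in ErbB2V664E mutants without overlap, and Sparc, Tnr and Bgn are higher in dnEGFR mutants without overlap.

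In ErbB2V664E mutants against controls, the comparison that chose the set, 3 of the 29 tested members passed the threshold of an adjusted p of 0.05, where 0.275% of the 13803 tested loci did. Of these, 2 members were higher and 1 was lower, where 0.138% of loci were higher and 0.138% lower. Col5a3 (adjusted p = 0.00306) and Bmp1 (adjusted p = 0.0469) were higher and Lamc1 (adjusted p = 0.0109) was lower by limma. With litter as a block the adjusted p was 0.0584 for Col5a3, 0.116 for Bmp1 and 0.0615 for Lamc1, so that none of the 3 passed. The Bmp1 value passed without ErbB2V664E mutant 1 and was lost without any other single library, with adjusted p of 0.0559 to 0.162, and Lamc1 was lost without ErbB2V664E mutant 2 (adjusted p = 0.0519). Without ErbB2V664E mutant 1, Col5a3 (log2 change of 1.87), Bmp1 (0.78) and Lamc1 (-0.99) passed, and so did Sparc (1.17, adjusted p = 0.0424) and Nid1 (-0.61, adjusted p = 0.0256), with 126 loci higher and 136 lower in all, against 19 and 19 with all libraries. The groups did not overlap for 8 members that were higher and 6 that were lower, where 9.28% and 8.96% of loci did so. The higher ones were Col5a1, Col5a3, Col11a1, Col6a1, Col6a2, Lama5, Bmp1 and Sparcl1, and the lower ones Col11a2, Col12a1, Lamc1, Nid1, Hspg2 and Bgn. The median log2 change was 0.01 over the 29 members and 0.004 over all tested loci, with 15 members positive and 14 negative. By role, the median was 0.45 for the 4 tested fibrillar chains, 0.83 for the 2 type VI chains, -0.16 for the 6 laminin chains and -0.33 for the 4 nidogens and heparan sulfate proteoglycans.

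Markers of the cells that make basement membrane were compared with these values. The summed level of 15 endothelial markers was 98.7 to 102 FPKM in ErbB2V664E mutants, against 89.4 to 94.5 FPKM in ErbB2V664E controls, where Lamc1 and Nid1 were lower in mutants. Cldn5 alone averaged 14.0 FPKM in ErbB2V664E mutants and 7.39 FPKM in ErbB2V664E controls and was listed at 0 in 4 of the 12 libraries. Without it the endothelial sum was 83.9 to 88.0 FPKM in ErbB2V664E mutants, against 78.6 to 92.7 FPKM in ErbB2V664E controls, which overlap. Without Slc2a1 instead, the sum was 75.4 to 79.0 FPKM in ErbB2V664E mutants, against 63.4 to 70.9 FPKM in ErbB2V664E controls, without overlap. Of the 15 endothelial changes in ErbB2V664E mutants, 10 were positive and 5 negative (median log2 change of 0.10). By limma 1 endothelial marker passed as higher, where 0.138% of all tested loci did. The sum of 13 pericyte and smooth muscle markers was 51.4 to 78.9 FPKM in ErbB2V664E mutants, against 72.9 to 76.9 FPKM in ErbB2V664E controls. Rgs5 alone averaged 20.5 FPKM in ErbB2V664E mutants and 32.0 FPKM in ErbB2V664E controls. Of the 12 tested changes in this list, 5 were positive and 7 negative (median log2 change of -0.03). Of 16 perivascular and meningeal fibroblast markers, 8 entered the test, and the sum was 16.6 to 24.4 FPKM in ErbB2V664E mutants, against 25.0 to 35.6 FPKM in ErbB2V664E controls. Igf2 averaged 3.89 FPKM in ErbB2V664E mutants and 10.1 FPKM in ErbB2V664E controls. Pdgfra, which is also an oligodendrocyte precursor marker, averaged 5.89 FPKM in these mutants and 8.01 FPKM in these controls. Of the 8 tested changes, 1 was positive and 7 were negative (median log2 change of -0.26). The fibroblast markers Slc47a1, Dpep1, Foxc1, Foxd1 and Slc22a2 were listed at 0 in 2, 3, 1, 2 and 8 libraries. The endothelial sum was 64.0 to 101 FPKM in dnEGFR mutants, against 69.9 to 82.2 FPKM in dnEGFR controls. The pericyte and smooth muscle sum was 61.1 to 69.0 FPKM in dnEGFR mutants, against 58.4 to 71.6 FPKM in dnEGFR controls, and the fibroblast sum was 17.8 to 21.4 FPKM in dnEGFR mutants, against 17.3 to 25.7 FPKM in dnEGFR controls. Oligodendrocyte precursor markers summed to 83.8 to 98.7 FPKM in ErbB2V664E mutants, against 49.0 to 58.9 FPKM in ErbB2V664E controls. Olig1 alone averaged 54.0 FPKM in ErbB2V664E mutants and was listed at 0 in all ErbB2V664E controls, and in 8 of the 12 libraries in all. The other 7 markers summed to 35.1 to 43.7 FPKM in ErbB2V664E mutants, against 49.0 to 58.9 FPKM in ErbB2V664E controls, and of the 8 changes 1 was positive and 7 were negative (median log2 change of -0.30). The part of these cells in the members' values was not tested.

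No member passed the threshold in dnEGFR mutants against controls, the mutant comparison that did not choose the set, where 0.0942% of all tested loci passed. At an unadjusted p under 0.05 by limma, 2 of 29 members passed, Sparc and Tnr, which is 6.9% of the members beside 5.69% of all loci. The groups did not overlap for 3 higher members, Sparc, Tnr and Bgn, and for 3 lower ones, Sparcl1, Bmp1 and Lama2, where 5.58% and 4.57% of loci did so. Of these, Lama2 entered the test only through control libraries, where it was high, so its place here is a description. The median log2 change over the members was -0.006, with 14 positive and 15 negative, and the median over all loci was 0.005. Col5a3, Lamc1 and Nid1 had log2 changes of 0.01, -0.02 and -0.01 in this line. A p that misses the threshold does not show that the groups were alike, and the intervals of these changes, -0.37 to 0.39 for Col5a3, -0.27 to 0.23 for Lamc1 and -0.24 to 0.21 for Nid1, bound them on the scale of FPKM + 1. Col5a3 lay at 0.472 to 0.737 FPKM in the dnEGFR line, where this scale understates changes. Its interval would be wider as a ratio of FPKM. Bmp1, Bgn and Sparcl1 separated without overlap in opposite ways in the lines, as 0.927% of all loci did, and 0 members separated the same way in both, where 1.09% of loci did.

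**Figure D4:**
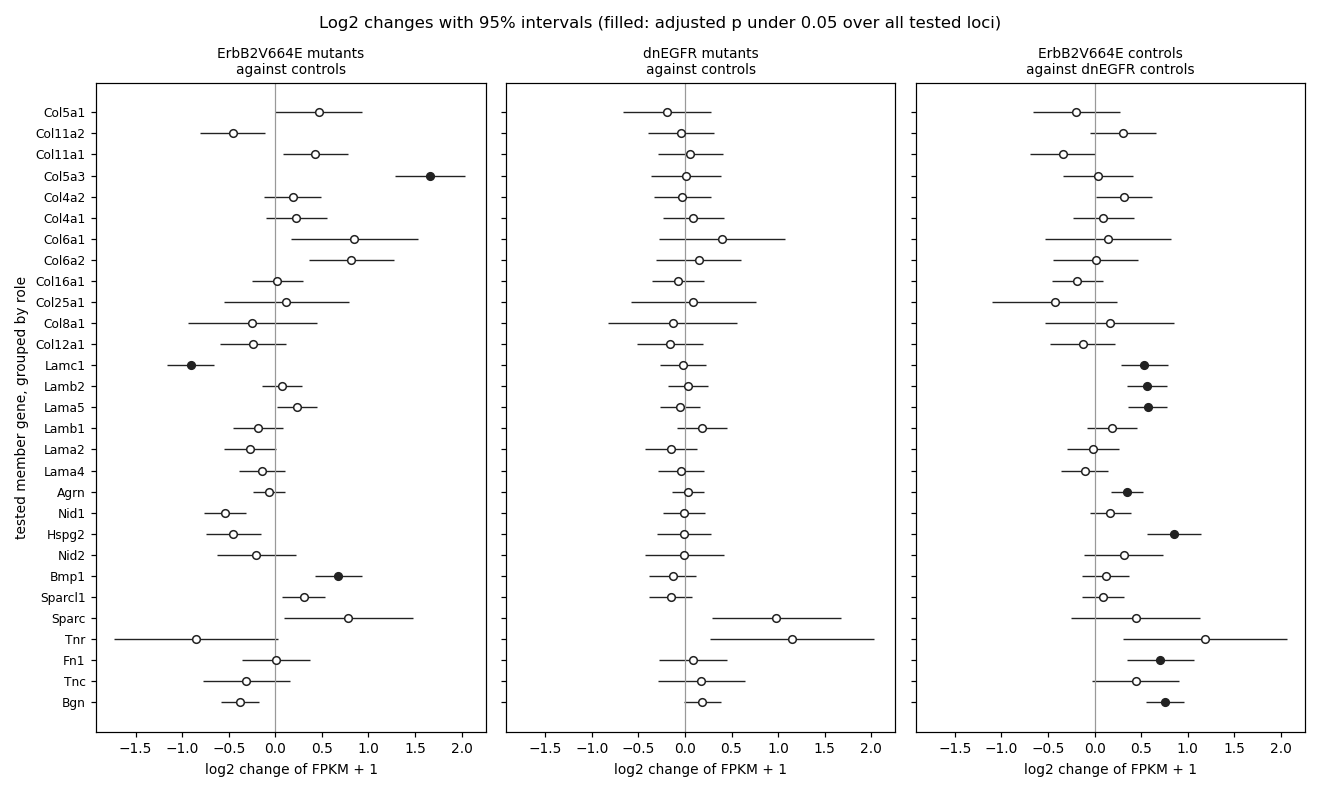
Log2 change of FPKM + 1 (x axis) with 95% intervals for the 29 tested members (rows, grouped by role) in 3 comparisons; filled points passed an adjusted p of 0.05. Filled points are Col5a3, Bmp1 and Lamc1 in ErbB2V664E mutants, none in dnEGFR mutants, and 7 members on the positive side in ErbB2V664E controls against dnEGFR controls.

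The difference between the mutant effects, ErbB2V664E minus dnEGFR, holds the comparison that chose the set and is a description. Col5a3 had a difference of 1.65 (SE 0.24, limma adjusted p = 0.0389), the 1 of 29 members that passed, where 0.116% of loci did. With litter as a block its adjusted p was 0.228, and when 1 library was left out at a time it passed without ErbB2V664E mutant 1 and was lost without each of the other 11. Lamc1 differed by -0.89 (adjusted p = 0.126), Bmp1 by 0.81 (adjusted p = 0.174) and Nid1 by -0.53 (adjusted p = 0.352) by limma, and did not pass. Without ErbB2V664E mutant 1, Col5a3, Bmp1 (adjusted p = 0.0492) and Lamc1 (adjusted p = 0.0492) passed, and Lamc1 also passed without ErbB2V664E control 2 (adjusted p = 0.0486). For Tnr the difference was -2.00 (SE 0.56, adjusted p = 0.372).

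More members, and more of all tested loci, passed the threshold between the control groups of the lines than between mutants and controls of either line. In ErbB2V664E controls against dnEGFR controls, 7 of the 29 members were higher and 0 lower, which is 24.1% of the members higher beside 10.9% of all loci higher and 9.12% lower (20.0% either way). The 7 were Bgn, Hspg2, Lama5, Lamb2, Lamc1, Agrn and Fn1, of which Hspg2 entered the test through the ErbB2V664E-line libraries, where it was high. At an unadjusted p under 0.05 by limma, 9 members were higher and 0 lower, which is 31.0% of the members, where 34.3% of loci passed in either direction. These groups differ in transgene line, age and litters, which cannot be told apart, and the ErbB2V664E controls also entered the comparison that chose the set.

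Among the members that passed, the largest log2 change was that of perlecan, with Hspg2 at 2.41 ± 0.338 FPKM in ErbB2V664E controls and 0.893 ± 0.162 FPKM in dnEGFR controls (SD, n = 3 each), a log2 change of 0.85 (SE 0.13, limma adjusted p = 0.00199). Of the dnEGFR-line libraries, only dnEGFR control 3 reached 1 FPKM for Hspg2, at 1.03 FPKM. Hspg2 thus entered the test through the ErbB2V664E line, where it was high, and its value is a description. Bgn averaged 2.7 ± 0.259 FPKM in ErbB2V664E controls and 1.19 ± 0.0844 FPKM in dnEGFR controls, a log2 change of 0.75 (SE 0.09, limma adjusted p = 0.000604). Of the laminins, Lama5 had a ratio of 1.9, Lamb2 of 1.6 and Lamc1 of 1.52, with adjusted p of 0.00317, 0.00347 and 0.00939 by limma. In Fn1 the ratio was 1.78 (adjusted p = 0.0141) and in Agrn 1.29 (adjusted p = 0.0128). The Fn1 value did not pass without ErbB2V664E control 3 (adjusted p = 0.0548). Tnr had 16.6 ± 4.57 FPKM in ErbB2V664E controls and 6.67 ± 1.66 FPKM in dnEGFR controls (SD, n = 3 each) and missed the threshold (log2 change of 1.19, limma adjusted p = 0.0602). It passed without ErbB2V664E mutant 1 (adjusted p = 0.00573), which enters only through the shared estimate of the spread, and without ErbB2V664E mutant 2 (adjusted p = 0.042). With a filter at 5 FPKM Tnr also passed (limma adjusted p = 0.0491).

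Of the 7, 6 were also above every dnEGFR library in all 3 ErbB2V664E mutants, and Lamc1 was the exception, at 4.16 to 5.28 FPKM in ErbB2V664E mutants, against 5.72 to 6.63 FPKM in all 6 dnEGFR libraries. The groups did not overlap for 9 members that were higher in ErbB2V664E controls, the 7 with Tnr and Col4a2, where 21.6% of loci did so. The 1 member lower in all ErbB2V664E controls, where 19.8% of loci were, was Col11a1, at 1.87 ± 0.592 FPKM in ErbB2V664E controls and 2.59 ± 0.274 FPKM in dnEGFR controls (SD, n = 3 each). The median log2 change was 0.17 over the members and 0.015 over all loci, with 22 members positive and 7 negative. Beside these values, the endothelial marker sum was 89.4 to 94.5 FPKM in ErbB2V664E controls and 69.9 to 82.2 FPKM in dnEGFR controls. Slc2a1 alone averaged 25.7 FPKM in ErbB2V664E controls and 9.56 FPKM in dnEGFR controls, and without it the endothelial sum was 63.4 to 70.9 FPKM in ErbB2V664E controls and 58.6 to 73.9 FPKM in dnEGFR controls. Of the 15 endothelial changes, 9 were positive and 6 negative (median log2 change of 0.07). The fibroblast marker sum was 25.0 to 35.6 FPKM in ErbB2V664E controls and 17.3 to 25.7 FPKM in dnEGFR controls. Igf2 alone averaged 10.1 FPKM in ErbB2V664E controls and 5.97 FPKM in dnEGFR controls. Of the 8 tested fibroblast changes, 7 were positive and 1 was negative (median log2 change of 0.35). The part of vessel and fibroblast content in these values was not tested. The highest single locus held 4.29% to 4.98% of the FPKM of each ErbB2V664E-line library and 0.58% to 1.16% of each dnEGFR-line library, so the libraries of the lines also differed outside the matrix genes.

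The rest of the matrix was read from 150 genes in 6 lists, of which 97 entered the test. None of these 97 passed in either mutant comparison or in the difference, where 0.275%, 0.0942% and 0.116% of loci did, and 13 were higher and 0 lower in ErbB2V664E controls against dnEGFR controls by limma, where 10.9% of loci were higher and 9.12% lower. At an unadjusted p under 0.05, 17 of the 97 passed in ErbB2V664E mutants (3 higher and 14 lower), 4 in dnEGFR mutants and 6 in the difference, where 12.1%, 5.69% and 9.01% of loci did. Their median log2 changes were -0.05 in ErbB2V664E mutants, 0.01 in dnEGFR mutants and 0.15 between the controls. The 20 tested genes of collagen modification and assembly, such as prolyl hydroxylases and collagen chaperones, had 7 positive and 13 negative changes in ErbB2V664E mutants, and 18 positive and 2 negative in dnEGFR mutants, with medians of -0.07 and 0.06 and no gene past the threshold. P4hb, the β subunit of prolyl 4-hydroxylase, had the highest level of that list, with 30.4 ± 0.878 FPKM in ErbB2V664E mutants and 31.4 ± 1.44 FPKM in ErbB2V664E controls, and 26.7 ± 2.93 FPKM in dnEGFR mutants and 25.3 ± 3.95 FPKM in dnEGFR controls (SD, n = 3 each).

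In the other lists, the genes of highest level were Col9a3 among further collagen and laminin chains (mean of 4.62 FPKM over the 12 libraries), the syndecan Sdc3 among matrix receptors (23.8 FPKM), brevican (Bcan) in the hyaluronan matrix (21.9 FPKM) and the proteoglycan Spock2 among other glycoproteins (114 FPKM). Bcan averaged 25.2 ± 1.16 FPKM in ErbB2V664E mutants and 23.4 ± 1.82 FPKM in ErbB2V664E controls, and 20.3 ± 1.71 FPKM in dnEGFR mutants and 18.6 ± 1.15 FPKM in dnEGFR controls (SD, n = 3 each). Timp2, an inhibitor of matrix metalloproteinases read at a locus joined with Cep295nl, led its list and split by line, with 40.1 ± 4.28 FPKM in ErbB2V664E mutants and 35.4 ± 2.2 FPKM in ErbB2V664E controls, against 5.81 ± 1.56 FPKM in dnEGFR mutants and 4.73 ± 0.731 FPKM in dnEGFR controls. Whether this joined locus was assembled alike in both lines was not tested.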

How the data were processed

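Per the labels' protocols, poly(A) RNA from total RNA was reverse transcribed with random hexamers and sequenced in paired ends; no step that keeps strand is named, so a gene and an antisense partner cannot be told apart. The deposited FPKM were made by the authors with StringTie, as the design text says, and HISAT is named in the submitters' processing notes. The sources used here give no versions, genome build or annotation, and RefSeq promoter windows were matched by symbol.

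From the FPKM, log2(FPKM + 1) was fitted with limma 3.58.1 in R 4.3.3 (group means of the 12 libraries, two-sided moderated test with trended prior variance, 8 residual and 2.03 prior degrees of freedom). Loci with at least 1 FPKM in at least 3 libraries entered, 13803 in all, with Benjamini-Hochberg adjustment over these and a threshold of 0.05. The script was tested on simulated data. Fragments per library were estimated from the value steps of 14221 loci with 1 transcript in GENCODE M21. Exact permutation of 3 against 3 libraries cannot give a p below 0.1.

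The descriptions name each mutant's littermate control, so 6 litters pair the libraries. Deviations from group means correlated within litters at 0.016, 0.009, 0.033, -0.004, 0.01 and -0.025. The members and lists were chosen with earlier results of these data known. Every library's value is given for members called in a comparison, for the 3 of lowest unadjusted p in each comparison, and for the most abundant of each role. Library values of Nid1 in the ErbB2V664E line are given outside that rule. Tables were made with pandas 2.3.3 and numpy 2.4.6 in Python 3.11.15, and figures with matplotlib 3.10.9.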

Additional observations from a re-analysis of the deposited data

Results flagged for a closer look

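The mutant effect of 1 member passed the test of the difference between the lines, and 3 others separated opposite ways in the lines without passing it. For Col5a3 the effect in ErbB2V664E mutants minus that in dnEGFR mutants was 1.65 on the log2 scale, and the test of this difference gave an adjusted p of 0.0389 by limma over 13803 loci. Col5a3 entered the test only through the 3 ErbB2V664E mutants, so this value is a description. With the litter block the adjusted p was 0.228, and it was 0.0643 to 0.109 when any single library other than ErbB2V664E mutant 1 was left out (0.00185 without that library). Bmp1 and Sparcl1 were higher than their controls in all ErbB2V664E mutants and lower in all dnEGFR mutants, with differences of 0.81 and 0.46. Bgn was lower in all ErbB2V664E mutants and higher in all dnEGFR mutants, with a difference of -0.57. For these 3 the test of the difference did not pass, with adjusted p of 0.174 for Bmp1, 0.422 for Sparcl1 and 0.276 for Bgn by limma. Such opposite separation of both lines was seen in 128 of the 13803 loci (0.927%), and separation the same way in 150 (1.09%), none of them a member. The ErbB2V664E side of each difference comes from the comparison that chose the genes.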

How the results depend on the processing

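No named member that passed a threshold changed sign under any alternative run. With the replicate block (litter as a block), 4 loci were higher and 3 lower in ErbB2V664E mutants, with 0 members higher and 0 lower; 3 loci were higher and 0 lower in dnEGFR mutants; and 2 loci were higher and 2 lower in the difference, with 0 members higher. The block changed no other call among the members, and could not be fitted for the control groups, which share no litter. A filter at 5 FPKM, which tested 6202 loci, gave 4 higher and 3 lower loci and 0 higher members in ErbB2V664E mutants. Col5a3 did not enter there, while Bmp1 entered and did not pass. The same filter gave 5 higher loci in dnEGFR mutants, and 3 higher and 4 lower loci and 0 higher members in the difference. Between the controls it gave 761 lower loci, and Tnr passed as higher (limma adjusted p = 0.0491). Without a filter, 1 member was higher in ErbB2V664E mutants (Bmp1 was lost) and 0 in the difference. Median ratio scaling left 1 member higher in ErbB2V664E mutants, again without Bmp1. A fit of the 6 libraries of a line gave 4 lower loci, 0 higher and 0 lower members in ErbB2V664E mutants (adjusted p of Col5a3 of 0.0851, Lamc1 of 0.133 and Bmp1 of 0.259 by limma) and 18 higher loci in dnEGFR mutants; it could not be run between the lines. Leaving out 1 library at a time gave 10 to 126 higher and 5 to 136 lower loci in ErbB2V664E mutants, with 1 to 3 members higher and 0 to 2 lower. The same gave 7 to 22 higher and 2 to 18 lower loci in dnEGFR mutants, with 0 members. It gave 4 to 17 higher and 9 to 25 lower loci in the difference, with 0 to 2 members higher and 0 to 1 lower, and 1004 to 1532 higher and 806 to 1260 lower loci between the controls, with 6 to 8 members higher. Where an arm then had 2 libraries, the fit shared the spread of all groups. Pseudocounts of 0.1 and 0.5 and summing the loci of a symbol kept the 3 member calls in ErbB2V664E mutants, where Col5a3 had log2 changes of 2.53 and 2.03. For Sparc and Tnr in dnEGFR mutants the adjusted p stayed at 0.243 to 0.962 and 0.19 to 0.962 over the alternatives. With 3 libraries a group, the changes of Sparc and Tnr, with standard errors of 0.31 and 0.40, did not pass after adjustment. These standard errors rest on the spread pooled over all 4 groups. The SD of Sparc was 26.3 and 10.5 FPKM in ErbB2V664E mutants and controls, against 5.48 and 4.56 FPKM in dnEGFR mutants and controls. For Tnr the SD was 5.66 and 4.57 FPKM, against 0.925 and 1.66 FPKM. The fit of the 6 dnEGFR-line libraries alone also called 0 members higher.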
